A study of Homo sapiens with 4 samples.

Results

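The data described here are the RNA-seq libraries of U87MG cells with and without knockdown of *FLI1*, 2 of the 4 libraries of the series. U87MG is an established human glioblastoma cell line. The control cells were infected with lentivirus carrying the empty vector pGreen, and the knockdown cells (shFLI1) with a lentivirus that expresses shRNA to *FLI1*. The sample title calls the control shControl, whereas the treatment label calls it the empty vector. Both arms were grown in DMEM with serum and antibiotics, infected in the presence of polybrene and selected with puromycin, and each library was made from mixed stable cells, that is, a selected population rather than a clone. The other 2 libraries hold the same arms of U251MG, a second glioblastoma line, and their values are given beside those of U87MG for description. Of 46660 gene identifiers in the table, the 11380 with at least 100 counts in 1 of the 2 U87MG libraries were counted.

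*FLI1* encodes a transcription factor of the ETS family, whose members bind DNA at sites with a GGAA core. It is best known for its roles in blood and endothelial development and as a partner in the gene fusions of Ewing sarcoma. A knockdown by shRNA lowers the mRNA by RNA interference and leaves the gene in place. Interferon-stimulated genes, the group that fell furthest, are used below only as a reference for size.

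*FLI1* had 107 counts in control cells and 52 in shFLI1 cells. These are 9.34 and 2.34 CPM (counts relative to library size, with TMM correcting for library composition), a log2 fold change of -1.95 with a 95% interval from -2.51 to -1.51. The library labelled shFLI1 was therefore lower in the targeted gene. On the authors' FPKM with 1 added before the logarithm the value was -1.14. With 1 library per arm there is no spread between replicates, so no P value is given for any difference within U87MG. A gene was called when its levels differed by more than 2-fold. Each 95% interval (Clopper-Pearson, on the share of a gene's reads from shFLI1 cells) covers counting error only. Since PCR reads are not independent molecules, the intervals can be too narrow even for that.

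The U87MG libraries held 12229780 counts (control) and 21250153 counts (shFLI1), a ratio of 1.74, and the U251MG libraries held 18108612 and 28891055. The 10 most abundant genes took 18.6% of the U87MG control counts and 13.2% of the shFLI1 counts. Of 11 glioblastoma markers, 9 were counted, with *VIM* (35318 and 66418 counts in control and shFLI1 cells), *CD44* (18281 and 38727) and *SOX2* (1337 and 3504) among them, whereas *S100B* had 1 and 7 counts and *CHI3L1* 9 and 15. None of 11 microglia and macrophage markers was counted, and their summed counts were 54 and 16. Most of that sum was *CD68*, with 47 and 12 counts, a gene that had 163 and 14 counts in U251MG. Of 10 T cell markers only *IL7R* was counted, and *CD8A* had 0 counts in both libraries. Counted markers of other cells were *KDR* (endothelial), *CNP* and *UGT8* (oligodendrocyte), *SYT1* (neuron), and *KRT8* and *KRT18* (epithelial). *PTPRC*, *EMCN*, *MAG*, *RBFOX3* and *CAMK2A* had 0 counts in both libraries. In bulk RNA a smaller share of cells that express a gene and less RNA per cell cannot be told apart.

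Of the 11380 genes counted, 555 (4.88%) differed by more than 2-fold. These were 290 higher (2.55%) and 265 lower (2.33%) in shFLI1 cells. The median log2 fold change over the counted genes was 0.01, and the 5th and 95th percentiles were -0.69 and 0.76. Of the 290 higher genes, 213 reached 100 counts in shFLI1 cells only, among 1470 genes that were counted through that deeper library alone. Among the 9871 genes with 100 counts in both libraries, 77 were higher and 226 lower. When the shFLI1 library was thinned at random to the depth of the control, 165 were higher and 296 lower. Of the 265 lower genes, 53 belonged to a list of 64 interferon-stimulated genes and 212 did not.

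**Figure D1:**
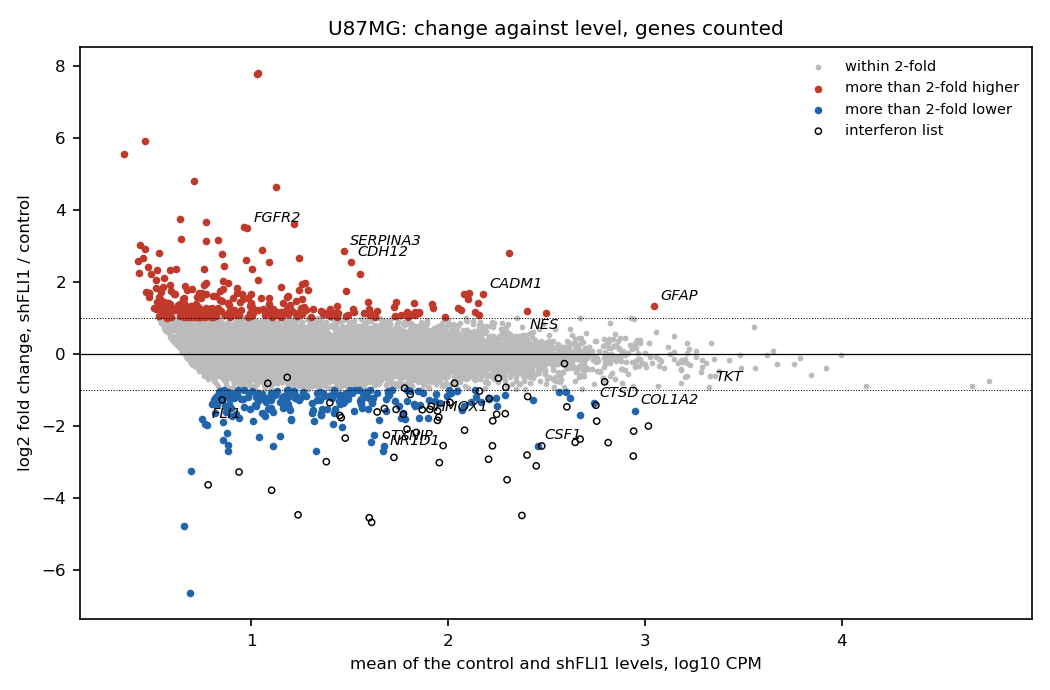
Log2 fold change (shFLI1 over control, vertical axis) against the mean of the control and shFLI1 levels in log10 CPM (horizontal axis) for each of the 11380 counted genes of U87MG. Red and blue points lie past the dotted 2-fold lines, open circles are the interferon list, and most of the 290 higher genes sit at low levels, where GFAP is an exception at 634 and 1587 CPM.

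Among abundant genes the clearest rise was that of *GFAP*, the intermediate filament of astrocytes. Its counts were 7264 in control and 35305 in shFLI1 cells, a log2 fold change of 1.32 (95% interval 1.29 to 1.36). *NES*, the intermediate filament of neural progenitors, went from 2281 to 6293 counts, a log2 fold change of 0.51 that stayed within 2-fold. Further genes of a short list are given by their values. *ACTR2*, a subunit of the Arp2/3 complex that branches actin, had a log2 fold change of 0.09. The cell death genes *BCL2* and *CASP8* had -0.05 and -0.31. The cyclin-dependent kinase inhibitor *CDKN1B* had -0.05 and the stress kinase *MAPK14* -0.16. *ISG15*, the ubiquitin-like interferon target, went from 12651 to 4420 counts, a log2 fold change of -2.47.

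The largest rises among protein-coding genes were ranked by the limit of the interval nearest to 0. All of them apart from *CDH12* had fewer than 100 counts in control cells, so their rises were chosen in part by the count limit. *CDH12*, a neuronal cadherin, had 107 counts in control and 1222 in shFLI1 cells, a log2 fold change of 2.54 (95% interval 2.27 to 2.85). *SERPINA3*, a secreted protease inhibitor made by reactive astrocytes, went from 82 to 1156 counts, a log2 fold change of 2.84. It was also higher in U251MG, by 1.39. Receptors were among the rises. *EPHA7*, an ephrin receptor, went from 16 to 377 counts, a log2 fold change of 3.51. *FGFR2*, a fibroblast growth factor receptor, went from 17 to 391 counts, a log2 fold change of 3.48. *GABRA2*, a subunit of the GABA-A receptor, went from 9 to 245 counts. All 3 genes had under 20 counts in control cells.

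The remaining rises were of mixed kinds. *ZNF423*, a zinc finger transcription factor, went from 28 to 680 counts. *HEPH*, a ferroxidase of iron export, went from 54 to 669. *MDGA2*, a neuronal adhesion protein, went from 13 to 237. All 3 had more than 10 times as many counts in the deeper shFLI1 library. The intestinal protease gene *TMPRSS15* went from 15 to 274 counts, and *POTED*, of a family with many similar copies, from 11 to 576. In U251MG *POTED*, *EPHA7*, *GABRA2*, *TMPRSS15*, *MDGA2*, *CDH12*, *HEPH* and *ZNF423* were below 100 counts in both libraries. *H2AC19* went from 0 to 482 counts and *SULT1A3* from 0 to 100, which against a floor of 3 counts per library are at least 82.7-fold and at least 17.2-fold higher. Both have near-identical copies. *H2AC18* and *H2AC19* together went from 9059 to 10787 counts, a log2 fold change of -0.71, and *SULT1A3* and *SULT1A4* together from 128 to 204, a log2 fold change of -0.28. The rises of *H2AC19* and *SULT1A3* were thus not seen in the sums, and the values of the single copies are uncertain.

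Among genes with 100 counts in both libraries, a set picked out after their values were seen, the largest rises after *CDH12* were as follows. *PRSS35*, a secreted serine protease-like protein, went from 695 to 4342 counts, a log2 fold change of 1.68. *CADM1*, an immunoglobulin adhesion molecule, went from 831 to 5084, a log2 fold change of 1.65 against -0.03 in U251MG. *LONRF2*, a ubiquitin ligase, went from 756 to 4163 (95% interval 1.39 to 1.62). These 3 genes had between 695 and 831 counts in control cells, far above the count limit. *LRIG1*, an inhibitor of growth factor receptors, was higher by 1.43 on the log2 scale, against -0.11 in U251MG.

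The protein-coding genes outside the interferon list that fell most were counted in control cells at 102 to 5636 counts. Over all counted genes, 39 reached 100 counts in control cells only, and all 39 were called lower. The count limit nearly fixed this outcome. A gene with 100 counts stood at 8.73 CPM in control cells but at 4.50 CPM in the deeper shFLI1 library. *CBS*, *SLX1B*, *UNC5B*, *SFRP1* and *TMEM140* had fewer than 100 counts in shFLI1 cells, so their falls were chosen in part by the count limit. *CSF1*, the growth factor of macrophages, went from 5636 to 1861 counts, a log2 fold change of -2.56 (95% interval -2.63 to -2.48). *NR1D1*, the REV-ERBα repressor of the circadian clock, went from 929 to 275, a log2 fold change of -2.70 (95% interval -2.91 to -2.52). *TXNIP*, an inhibitor of thioredoxin that follows glucose supply, went from 928 to 303, a log2 fold change of -2.56. In all 3 the whole interval lay beyond 2-fold. Guidance and signaling genes also fell. The netrin receptor gene *UNC5B* went from 152 to 43 counts, the Wnt inhibitor *SFRP1* from 150 to 48 and the mesenchymal transcription factor gene *FOXF1* from 267 to 104. In U251MG *CSF1* was at the 2-fold limit (7440 and 6232 counts). The log2 fold changes there were -0.77 for *NR1D1*, -0.67 for *UNC5B* and -0.93 for *SFRP1*, against -3.68 for *TXNIP* and -2.29 for *FOXF1*.

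Several of the falls were genes of immune defense that are not on the interferon list. That list is a selection of 64 genes, so genes outside it can still respond to interferon. Whether they do was not tested. *NLRC5*, the activator of MHC class I genes, went from 789 to 280 counts (log2 fold change -2.44). *LGALS9*, which encodes galectin-9, went from 425 to 124 (-2.71). *SHFL*, an inhibitor of viral frameshifting, went from 794 to 319 (-2.27). *TMEM140* went from 253 to 81 (-2.57). All 4 were also more than 2-fold lower in U251MG, with log2 fold changes from -3.51 (*LGALS9*) to -2.58 (*NLRC5*). *CBS*, the first enzyme of transsulfuration, went from 102 to 5 counts, a log2 fold change of -4.80 (95% interval -6.96 to -4.04), but a near-identical copy of *CBS* exists in the genome assembly, so its counts are uncertain. *SLX1B* went from 104 to 19 counts, whereas *SLX1A* and *SLX1B*, which are near-identical, together went from 355 to 520, a log2 fold change of -0.41.

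**Figure D2:**
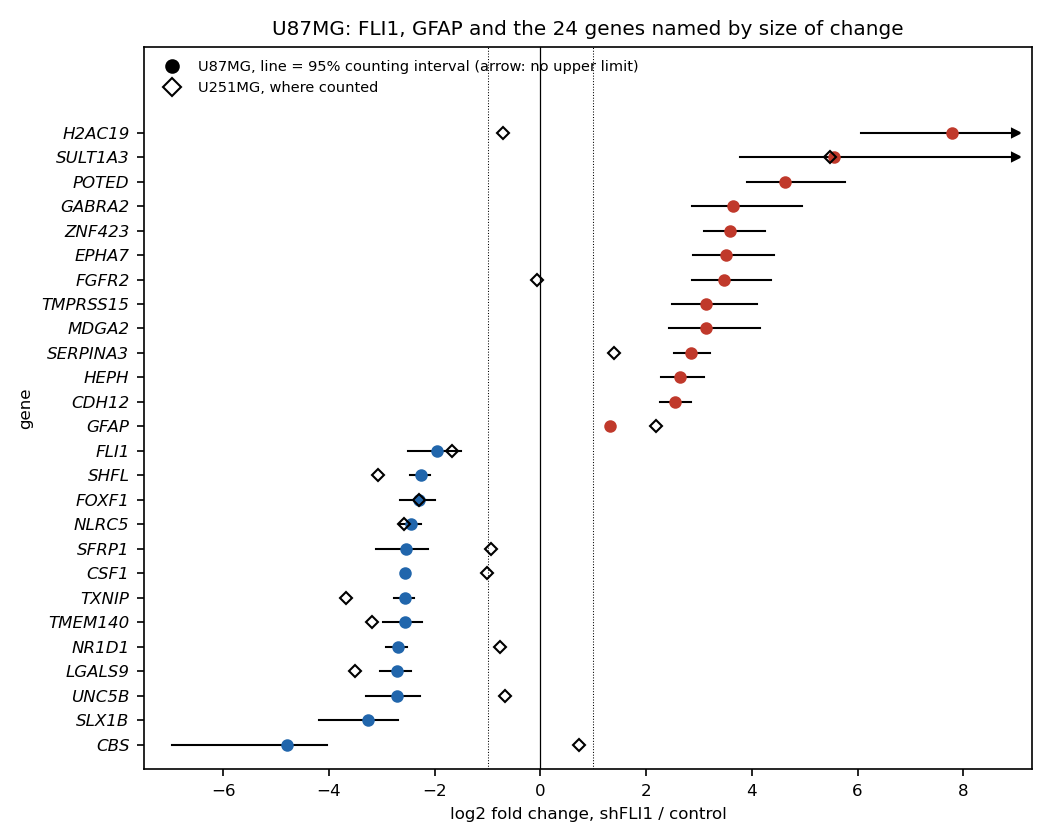
Log2 fold change (shFLI1 over control) in U87MG of *FLI1*, *GFAP* and the 12 largest rises and 12 largest falls of protein-coding genes (circles, with 95% counting intervals), and in U251MG where the gene was counted there (diamonds). Of the 12 rises only *SULT1A3* and *SERPINA3* lie past 2-fold on the same side in U251MG, whereas *LGALS9*, *TXNIP*, *TMEM140*, *SHFL*, *NLRC5*, *FOXF1* and, barely, *CSF1* do so among the 12 falls.

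The promoters of the called genes were searched for short motifs, since FLI1 is an ETS factor and interferon-stimulated genes carry a known element. RefSeq promoters (GRCh38.p14) were matched for 9216 counted genes, and the 250 bases before the start were read on both strands. The ETS motif CCGGAAGT was in 8.05% of promoters of counted genes and in 3.64% of all 27305 promoters. It was in 4 of 137 promoters (2.92%) of higher genes, in 1 of 153 (0.654%) of lower genes outside the interferon list and in 0 of 40 of lower genes on it. The interferon-response motif GAAANNGAAA was in 2.39% of promoters of counted genes and in 3.07% of all promoters. It was in 21 of 40 promoters (52.5%) of lower genes on the interferon list, in 14 of 153 (9.15%) of the other lower genes and in 6 of 137 (4.38%) of higher genes. Both the lower genes outside the list and the higher genes thus had a smaller share of ETS matches than counted genes as a whole. Both also had a larger share of interferon-response matches, so neither difference was particular to the lower genes. The ETS shares rest on 1 and 4 matches, and the differences were not tested. The NRF2 motif TGACNNNGC was in 12.1% of promoters of counted genes, in 11.1% of the other lower genes and in 13.9% of higher genes. For the ATF4 motif TGATGNAA the shares were 1.35%, 1.96% and 2.19%, for the AP-1 motif TGANTCA 323 of 9216, 9 of 153 and 9 of 137 promoters, and for the E-box CACGTG 9.09%, 10.5% and 5.84%. A match describes the letters in this window only and does not show that a factor binds there.

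The following stretches show the motif in promoters of genes named above and of *KRT8* and *KIF14*. They are printed 5′ to 3′ on the strand of the gene, with the matched bases in capitals. *SHFL* and *TMEM140* fell and carry the interferon-response motif, 34 to 43 and 44 to 53 bases before the start. *HEPH* rose and carries it on the opposite strand, 230 to 239 bases before the start used. For *HEPH* that start lies inside the annotated gene, which begins at chrX:66162671. *KRT8*, the epithelial keratin, is the 1 lower gene outside the interferon list with the ETS motif (on the opposite strand), and *KIF14*, a mitotic kinesin, is a higher gene with it (also on the opposite strand).
*SHFL* (chr19:10086229-10086316, plus strand, log2 fold change -2.27): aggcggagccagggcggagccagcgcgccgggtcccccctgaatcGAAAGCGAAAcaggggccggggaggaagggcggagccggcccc
*TMEM140* (chr7:135147974-135148071, plus strand, log2 fold change -2.57): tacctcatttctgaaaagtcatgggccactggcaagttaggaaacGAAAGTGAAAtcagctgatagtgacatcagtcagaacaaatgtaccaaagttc
*HEPH* (chrX:66163997-66164062, plus strand, log2 fold change 2.65): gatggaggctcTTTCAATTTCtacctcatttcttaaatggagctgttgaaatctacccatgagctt
*KRT8* (chr12:52926476-52926573, minus strand, log2 fold change -1.31): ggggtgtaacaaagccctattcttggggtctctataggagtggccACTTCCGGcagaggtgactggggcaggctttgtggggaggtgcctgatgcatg
*KIF14* (chr1:200620776-200620873, minus strand, log2 fold change 1.16): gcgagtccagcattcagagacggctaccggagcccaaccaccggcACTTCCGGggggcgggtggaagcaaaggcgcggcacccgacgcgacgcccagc

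The response was then described by 40 lists of genes of known programs besides the interferon list. A list is given by its counted members, the number past 2-fold in each direction and its median log2 fold change, beside the backgrounds of 2.55% higher and 2.33% lower and the median of 0.01 over all counted genes. Scaling to total counts in place of TMM raised the median of all counted genes to 0.17. The medians of the neuronal, matrix protease, contractile, YAP, TGF-β and BMP, Wnt, growth factor receptor, ERK, G1, heat shock, ribosomal, lysosomal and AMPK lists were below 0 with TMM and above 0 with total counts, whereas those of the cell adhesion and collagen lists were above 0 with TMM and below 0 with DESeq2 size factors. Over all the program lists 34 genes were higher, and 17 among genes with 100 counts in both libraries. Members with fewer than 100 counts in control cells were counted through the shFLI1 library alone, and members with fewer than 100 in shFLI1 cells through the control library alone.

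**Figure D3:**
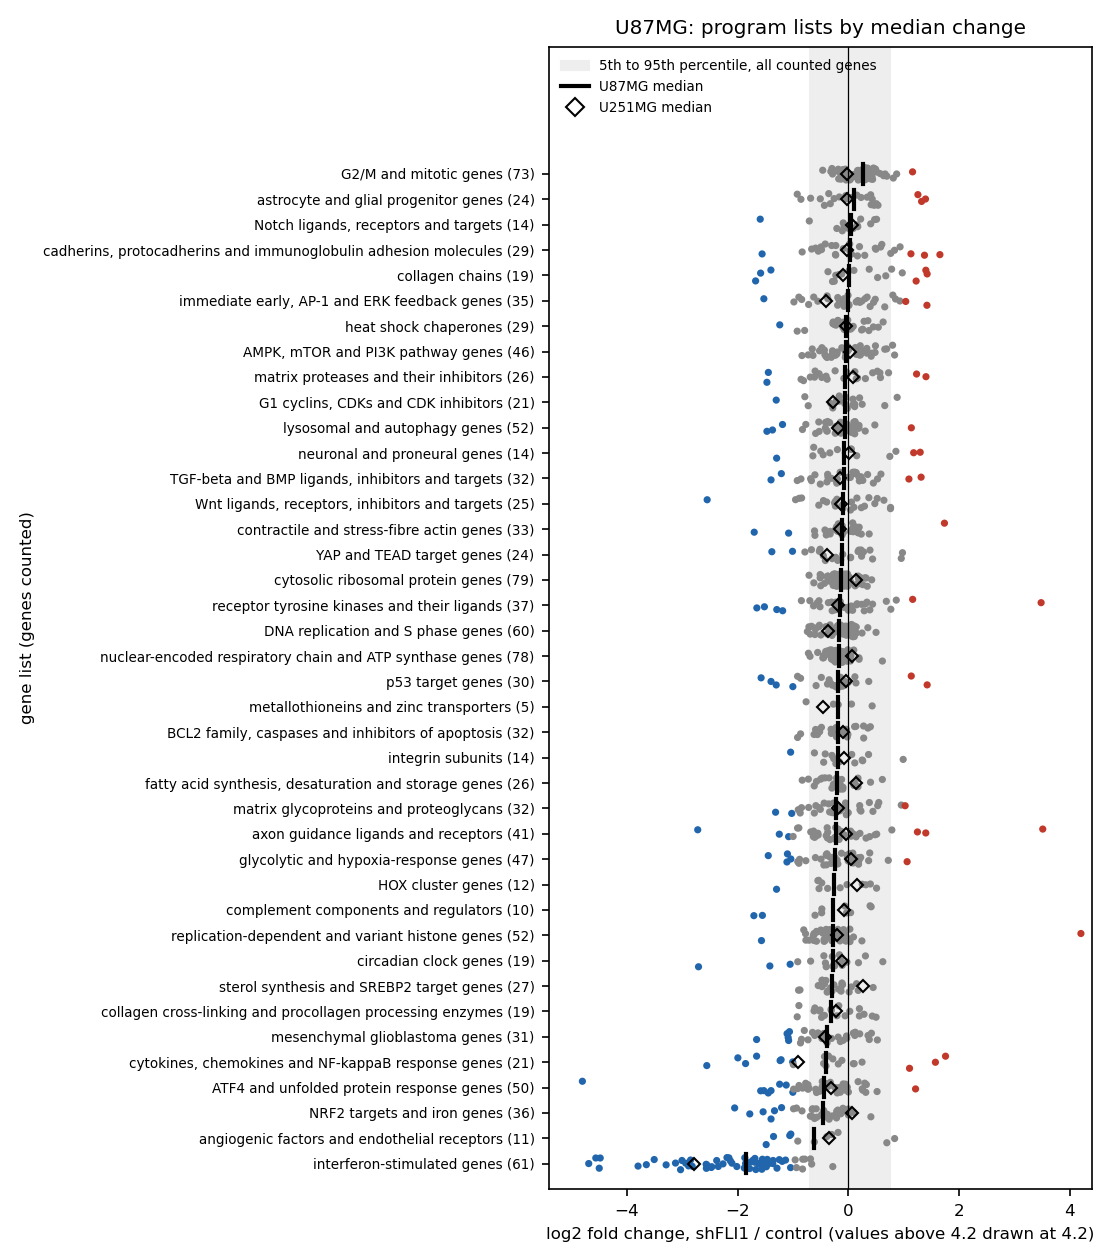
Log2 fold change (shFLI1 over control) of each counted gene of the interferon list and of the program lists with at least 5 counted genes, in order of the U87MG median (bar), with the U251MG median as a diamond and the 5th to 95th percentile of all counted genes shaded. Red and blue points are past 2-fold; the NRF2 and iron list has a median of -0.46 in U87MG and 0.07 in U251MG, and the mitotic list is the highest, at 0.26.

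The next list held genes of the antioxidant response, which is driven by the transcription factor NRF2, and of iron handling. Of 36 counted, 6 were lower past 2-fold (16.7%), 30 were within 2-fold and 0 were higher, and the median was -0.46 (-0.30 with total counts). *AKR1C1*, an aldo-keto reductase, went from 533 to 248 counts (log2 fold change -2.05). *HMOX1*, heme oxygenase 1, went from 1409 to 796 counts (log2 fold change -1.78, 95% interval -1.91 to -1.66). *OSGIN1*, an oxidative stress target, went from 255 to 187 counts (-1.39), and the transporter *ABCC2* from 207 to 137 (-1.54). Their falls were accompanied by smaller differences in abundant members that stayed within 2-fold. *TKT*, an enzyme of the pentose phosphate pathway, was close to the limit at -0.94. The ferritin chains *FTH1* and *FTL* had -0.65 and -0.48, and *NQO1*, a classical NRF2 target, -0.69. *NFE2L2*, the gene of NRF2 itself, had -0.19, and its repressor *KEAP1* -0.21. The transferrin receptor *TFRC* stood on the other side, at 0.41. In U251MG 35 genes of the list were counted, 0 were past 2-fold in either direction and the median was 0.07, with *HMOX1* at -0.28, *AKR1C1* at -0.39 and *TKT* at 0.58. The difference between the lines was not tested, since each has 1 library per arm.

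Amino acid shortage and protein folding stress in the endoplasmic reticulum act through the factor ATF4 and the unfolded protein response. Of 50 counted genes of these responses, 41 were below 0 and 9 above. Past 2-fold, 8 were lower and 1 higher, and the median was -0.43 (-0.27 with total counts). The 8 genes lower past 2-fold were mostly on the ATF4 side. *PCK2*, mitochondrial PEP carboxykinase, went from 574 to 371 counts (log2 fold change -1.58), although only 52% of its counts came from annotated RefSeq transcripts. *ATF3*, a stress-induced transcription factor, went from 248 to 166 (-1.52). *DDIT4*, an inhibitor of mTOR, went from 1136 to 809 (-1.45), and the secreted stress factor *GDF15* from 1119 to 825 (-1.40). *CTH*, the second enzyme of transsulfuration, was at -1.24. *ATF4* mRNA itself was at -0.05, and the folding chaperones *HSPA5* and *HSP90B1* at -0.02 and 0.18. Some other genes of folding stress were lower within 2-fold, with *DNAJB9* at -0.99, *XBP1* at -0.77 and *PDIA4* at -0.47. On the ATF4 side *SLC7A11* and *MTHFD2* were at 0.002 and -0.05, so the list did not divide cleanly by side. The 1 higher gene was *VLDLR*, a lipoprotein receptor, with 801 and 3613 counts (log2 fold change 1.21). In U251MG the list had 6 lower and 0 higher of 50, and a median of -0.31.

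Cytokine genes and genes of the NF-κB response changed in both directions. Of 21 counted, 7 were lower (33.3%) and 3 higher (14.3%), with a median of -0.40 (-0.25 with total counts). Besides *CSF1*, the chemokine *CXCL8* fell from 286 to 152 counts (log2 fold change -1.85). The NF-κB inhibitor *TNFAIP3* fell from 110 to 52 (-1.99), and the NF-κB subunit genes *RELB* and *NFKB2* had -1.66 and -1.21. *NFKB1* and *RELA*, the subunits of the canonical pathway, were at -0.12 and 0.11. *RELB* and *NFKB2* encode subunits of the non-canonical pathway, but mRNA levels do not measure the activity of either pathway. The 3 higher genes were *IL11*, a cytokine of the IL-6 family (91 and 602 counts, log2 fold change 1.76), the monocyte chemokine *CCL2* (87 and 507, 1.57) and *CCL28* (25 and 107, 1.11), each below 100 counts in control cells. In U251MG *IL11* went the other way, from 524 to 319 counts (log2 fold change -1.46), and *CCL2* was at -0.37. The complement gene *CFB* was lower, with a log2 fold change of -1.55. None of the counts of *CFB* came from rows annotated to a RefSeq transcript.

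**Figure D4:**
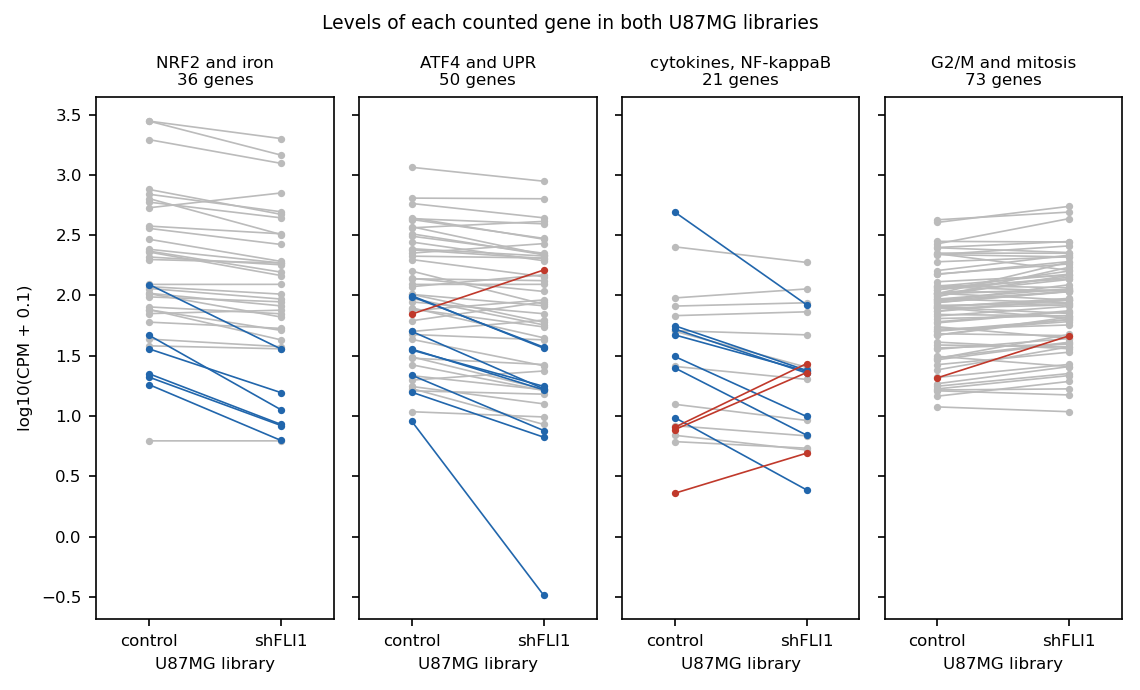
Level of each counted gene in the control and shFLI1 libraries of U87MG (log10 of CPM plus 0.1, vertical axis) for 4 program lists, with lines joining the values of a gene. Blue lines are genes more than 2-fold lower, red lines more than 2-fold higher and grey lines within 2-fold; 6 of 36 NRF2 and iron genes are blue and 1 of 73 mitotic genes is red.

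Genes of the mesenchymal state of glioblastoma, an invasive and inflammatory expression state, were lower in part. Of 31 counted, 5 were lower (16.1%), 0 higher, and the median was -0.38 (-0.22 with total counts). Besides *RELB*, these were the galectin gene *LGALS1* (5669 and 5216 counts, log2 fold change -1.08), the calcium-binding *S100A11* (-1.11), the caveolin *CAV2* (-1.09) and the transcription factor *CEBPD* (-1.06). All 4 lay just past the 2-fold limit, and with total counts only 1 gene of the list was lower. The abundant surface and matrix genes of the list were not among them. *CD44* had 0.13 and *TGFBI* 0.42, while *FN1*, fibronectin, had -0.84. In U251MG the list had 4 lower genes and a median of -0.42.

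Angiogenic genes were lower in 4 of 11 counted (36.4%) with a median of -0.61. These were *VEGFC* (156 and 107 counts, log2 fold change -1.48), *PGF* (196 and 148, -1.35), *VEGFA* (1706 and 1613, -1.04) and the VEGF receptor *KDR* (118 and 109, -1.06), and 2 of the 4 stayed past 2-fold with total counts. Of 47 glycolytic and hypoxia-response genes, 4 were lower (8.51%) and 1 higher (2.13%), with a median of -0.25 (0.01 on FPKM with 1 added). *NDRG1* and the oxygen sensor *EGLN3* fell with *VEGFA* and *DDIT4* (log2 fold changes -1.10 and -1.11), but with total counts only 1 gene of the list was lower. *CA9*, a carbonic anhydrase that is also a hypoxia target, rose from 229 to 931 counts (1.06). Among glycolytic enzymes, *GAPDH* was at -0.28, *ENO1* and *PKM* at -0.39, *LDHA* at -0.49 and *PFKL* at -0.59. *PFKM* was at -0.02, *ENO2* at 0.05 and *LDHB* at 0.09. *LDHA* had 451 and 622 counts, and only 50% of its counts came from annotated RefSeq transcripts.

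Glial lineage genes were higher in 3 of 24 counted (12.5%), with 0 lower and a median of 0.10. Besides *GFAP*, these were the radial glial lipid-binding protein gene *FABP7* (91 and 468 counts, log2 fold change 1.39) and the progenitor RNA-binding protein gene *MSI1* (28 and 133, 1.26). Both had fewer than 100 counts in control cells, and of 21 genes of the list counted in both libraries only *GFAP* was higher. *FABP7* was higher in U251MG as well (1.20). The inhibitors of differentiation *ID1*, *ID2* and *ID3*, targets of BMP signaling, had the lowest values of the list, at -0.92, -0.86 and -0.68. *SOX2* and *SOX9*, neural stem cell transcription factors, had 0.43 and -0.16, and *VIM* -0.05. Of 14 counted neuronal genes, 2 were higher and 1 lower (median -0.07, 0.09 with total counts). *NLGN1*, a synaptic adhesion protein, went from 350 to 1675 counts (log2 fold change 1.30), and *SCG2*, a secretory granule protein, from 191 to 150 (-1.29).

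Collagen chains changed in opposite directions, 3 higher and 3 lower of 19 counted (15.8% each), with a median of 0.01. *COL1A2* fell from 15245 to 9880 counts (log2 fold change -1.58, 95% interval -1.62 to -1.55), while *COL1A1*, the other chain of type I collagen, rose from 104 to 475 (1.22). *COL11A1* rose from 898 to 4607 counts (1.40), and *COL27A1* from 54 to 285 (1.42). *COL13A1* fell from 147 to 88 (-1.67). The abundant *COL14A1*, with 6565 and 25057 counts, was at 0.97, just inside the limit. *COL5A1* had -1.40 on counts, but 0.19 on FPKM with 1 added, so that its direction depended on the unit. In U251MG *COL11A1* was lower (-1.24), and *COL1A2* had -0.33.

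Other matrix and adhesion genes showed few calls. Of 32 matrix glycoproteins and proteoglycans, 2 were lower (*FBLN1*, -1.31, and *FBN2*, -1.02) and 1 higher (*LAMA2*, 1.03). None of 19 collagen cross-linking and processing enzymes was past 2-fold (median -0.31). Among 26 matrix proteases and inhibitors, the membrane-type metalloproteases *MMP16* (421 and 2165 counts, log2 fold change 1.40) and *MMP15* (78 and 359, 1.23) rose. The lysosomal protease *CTSL* (2970 and 2082, -1.47) and the aggrecanase *ADAMTS4* (177 and 125, -1.44) fell. Of 14 integrin subunits only the laminin receptor chain *ITGA6* was past 2-fold (-1.04). Adhesion molecules followed no single direction, with *CADM1*, *PCDH19* (1.38) and *PCDH9* (1.13) higher and *MCAM* (-1.56) lower among 29.

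Guidance cues and growth factor signaling were changed in single genes. Of 41 axon guidance genes 3 were higher and 3 lower (7.32% each), namely *EPHA7*, the netrin gene *NTN1* (log2 fold change 1.25) and the Slit receptor *ROBO2* (28 and 147 counts, 1.40) against *UNC5B*, *SEMA3F* (-1.25) and *EPHB2* (-1.08). Of 37 receptor tyrosine kinase and ligand genes, 2 were higher (*FGFR2* and the ligand *PDGFB*, 99 and 433 counts, 1.16) and 4 lower. The lower genes were *GAS6*, the ligand of the AXL receptor (-1.51), and the IGF-binding proteins *IGFBP4* (-1.65), *IGFBP5* (4392 and 3484 counts, -1.29) and *IGFBP6* (-1.19). The median of this list was -0.15, and 0.01 with total counts. *IGFBP4* and *IGFBP5* were lower in U251MG as well, by -3.57 and -1.39. The receptor genes *IGF1R*, *EGFR* and *MET* had -0.20, -0.29 and -0.30 in U87MG.

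Among TGF-β and BMP genes, 2 were higher and 2 lower of 32. *GDF11* (179 and 868 counts, log2 fold change 1.31) and *PMEPA1*, a feedback inhibitor (1.09), were higher, and *GDF15* and the co-receptor *TGFBR3* (-1.21) lower. Of 25 Wnt genes only *SFRP1*, and of 14 Notch genes only *HES4* (-1.59), was past 2-fold. The YAP and TEAD targets *NT5E* (-1.38) and *GADD45B* (-1.01) were lower among 24. Immediate early and ERK feedback genes were split, with *EGR1* (226 and 903 counts, 1.04) and *ETV4* (22 and 118, 1.42) higher and *ATF3* lower among 35. Both *EGR1* and *ETV4* are targets of ERK signaling. Of 33 contractile and actin genes, *MYLK*, myosin light chain kinase (-1.70), and *ACTA2*, smooth muscle actin (-1.08), were lower and *TAGLN* (36 and 238, 1.74) higher, the last with 54% of its counts in annotated RefSeq transcripts.

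Cell cycle genes differed by phase, though by little. Of 73 G2/M and mitotic genes 54 were above 0 and the median was 0.26 (0.23 with DESeq2 size factors, 0.42 with total counts), against 49.6% above 0 among 10504 protein-coding genes outside the interferon list. Only *KIF14* passed 2-fold (236 and 1027 counts, log2 fold change 1.16), followed by *CENPF*, a kinetochore protein (0.87), *ECT2*, an activator of cytokinesis (0.81), and topoisomerase *TOP2A* (0.70). Of 60 DNA replication genes 19 were above 0, 0 were past 2-fold and the median was -0.16, which became -0.003 with total counts. In U251MG the medians were -0.02 for the mitotic and -0.36 for the replication list. The order of the lists, mitotic above replication, was thus the same in both lines.

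Among p53 targets, 4 of 30 were lower (13.3%) and 2 higher (6.67%). The cell cycle inhibitor *CDKN1A* (p21) went from 1310 to 1031 counts (log2 fold change -1.30), and *GADD45A* from 269 to 174 (-1.57). *CYFIP2* (243 and 1270, 1.42) and the RNA-binding *ZMAT3* (267 and 1143, 1.14) rose. These targets thus moved in both directions. None of 32 counted genes of the BCL2 family, caspases and inhibitors of apoptosis was past 2-fold (median -0.19), and none of 46 AMPK, mTOR and PI3K pathway genes (median -0.04, 0.12 with total counts).

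The large housekeeping lists held no gene past 2-fold. The 78 nuclear genes of the respiratory chain and ATP synthase had a median of -0.16 (-0.001 with total counts), with 67 below 0. The 79 cytosolic ribosomal protein genes had -0.13 (0.03 with total counts), with 65 below 0. Sterol synthesis and SREBP2 target genes had -0.29 over 27 counted, against 0.27 in U251MG, with *INSIG1*, the sterol sensor, at -0.87 and 1.00 and *CYP51A1* at -0.90 and 0.27. Fatty acid genes had -0.20 over 26 and 0.13 in U251MG. The zinc-binding metallothioneins and zinc transporters had -0.18 over 5 counted. None of the 30 genes on the list of mitochondrially encoded genes was matched to a gene identifier, so that list has no values. The sterol list therefore stood on opposite sides of 0 in the lines by values that are small beside the 2-fold limit, and the difference was not tested.

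Lysosomal genes were split. The protease gene *CTSD* fell from 9074 to 6822 counts (log2 fold change -1.37, 95% interval -1.41 to -1.32), along with *CTSL* and *TFEB*, a master regulator of lysosome genes (304 and 258, -1.19). The glycogen-degrading *GAA* rose (190 and 815, 1.14), and the median over 52 was -0.07 (0.10 with total counts). Among 19 clock genes, the PAR-domain factors *DBP* (175 and 126, -1.42) and *TEF* (-1.05) fell with *NR1D1*. All 3 are direct outputs of the clock's activating arm in the textbook model, and all 3 were within 2-fold in U251MG. The other 16 counted clock genes stayed within 2-fold in U87MG, where the list median was -0.28. Among them *PER3* was at -0.91, *PER1* at -0.29, *PER2* at -0.28, *NR1D2* at -0.25 and *CLOCK* at 0.62. Of 29 heat shock chaperones *HSPB1* fell (6713 and 5529, -1.24), and of 12 HOX genes *HOXC13* (-1.30).

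The genes were also grouped by their class and by chromosome. Of 10566 protein-coding genes 144 were higher (1.36%) and 258 lower (2.44%). Of 459 lncRNA genes 60 were higher (13.1%) and 3 lower, and of 224 identifiers without a symbol 80 were higher (35.7%) and 3 lower. Among genes with 100 counts in both libraries, 49 of 9503 protein-coding genes were higher and 221 lower, 13 of 202 lncRNA genes higher and 2 lower, and 15 of 86 identifiers without a symbol higher and 2 lower. In the third of genes with the lowest level 234 were higher and 103 lower, against 25 and 76 in the third with the highest level. The non-coding RNA that rose most was *LOC105370870*, with 0 counts in control and 474 in shFLI1 cells, at least 81.3-fold higher against the floor of 3 counts. In U251MG it had 1 and 736 counts.

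By chromosome, protein-coding genes outside the interferon list had medians furthest from 0 on chromosomes 17 and 7. On chromosome 17 the median log2 fold change was 0.23 over 626 genes, and 77.3% of the genes were above 0. The chromosome was divided into windows of 10 Mb, and all 9 of 9 windows with at least 5 genes had a median above 0, from 0.13 to 0.35. On chromosome 7 the median was -0.16 over 494 genes, with 30.2% above 0, and all 16 of 16 windows were below 0, from -0.36 to -0.03. In U251MG the medians were -0.01 and 0.03, with 48.4% and 55.3% of the genes above 0. One-sided windows were also seen on chromosome 13, with 8 of 8 above 0 at a smaller median of 0.09, and on chromosome 22, with 5 of 5 below 0 in both lines and medians of -0.08. Chromosome 19, which is also rich in genes, had -0.05 in U87MG. *GFAP* and *NR1D1* both lie on chromosome 17, at 1.32 and -2.70.

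Parts of other chromosomes, chosen after their values were seen, also stood apart. The first 4 windows of chromosome 9 had a median of 0.35 over 116 genes, against 0.03 over 316 genes in windows 7 to 14. Windows 17 to 20 of chromosome 3 had 0.32 over 114 genes, against 0.02 over 484 genes before them. Windows 1 to 13 of chromosome 1 had -0.13 over 595 genes, and windows 15 to 25 had 0.01 over 461. The same stretches of U251MG were between -0.02 and 0.05. No DNA measurement of these cells was analysed here.

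**Figure D5:**
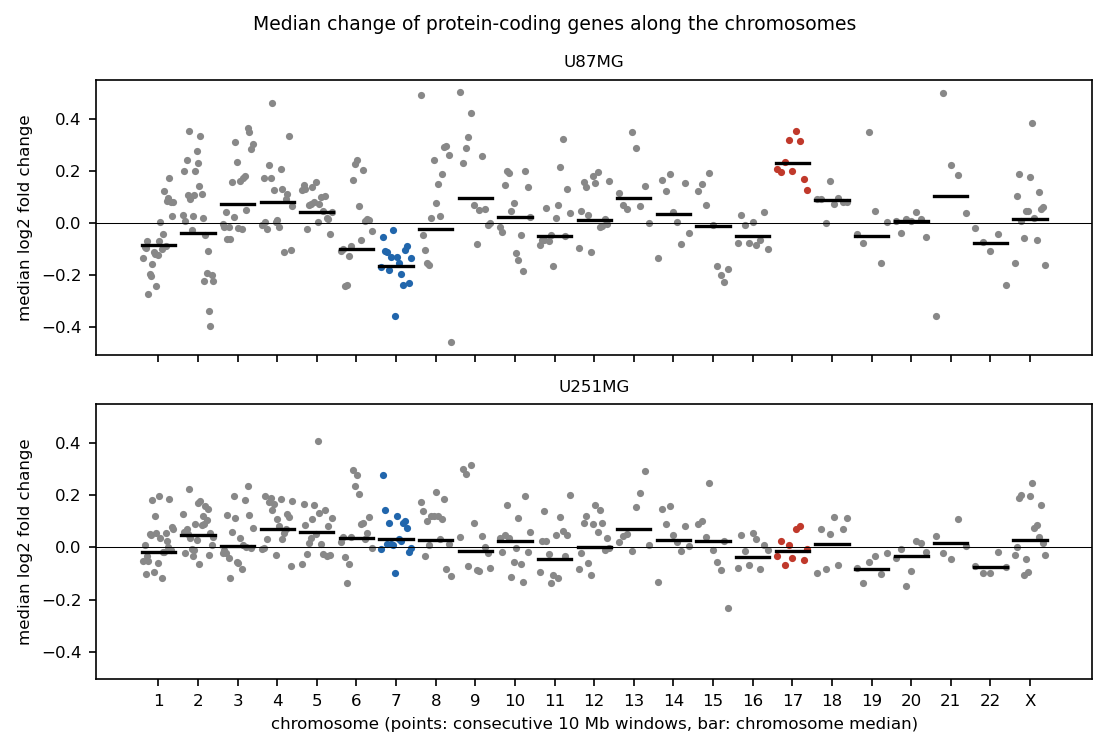
Median log2 fold change (shFLI1 over control, vertical axis) of protein-coding genes outside the interferon list in consecutive 10 Mb windows with at least 5 genes (points) and over whole chromosomes (bars), in U87MG and U251MG. The windows of chromosome 17 (red) are all above 0 and those of chromosome 7 (blue) all below 0 in U87MG, at chromosome medians of 0.23 and -0.16, whereas both lie around 0 in U251MG.

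The calls of U87MG were last set beside those of U251MG, in which 135 of 12129 counted genes were higher (1.11%) and 265 lower (2.18%). Of the 290 genes higher in U87MG, 213 were counted in U251MG, where 24 were higher, 3 lower and 186 within 2-fold. Of the 212 lower genes outside the interferon list, 199 were counted there, and 68 were lower, 2 higher and 129 within 2-fold. The 68 include *NLRC5*, *LGALS9*, *SHFL* and *TMEM140*. Genes outside the list can still respond to interferon, which was not tested. Thus 24 of 213 higher genes and 68 of 199 lower genes were called in the same direction in the second line. Of 61 counted genes on the interferon list, 53 were lower in U87MG, with a median of -1.86, and 61 of 62 in U251MG, with a median of -2.79.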

How the data were processed

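RNA-seq was performed in control and shFLI1 cells of U87MG and U251MG, with 1 library per arm. According to their methods, the authors selected mRNA on poly-T beads, trimmed the reads, mapped them to GRCh38 by HISAT2 and obtained FPKM from StringTie. The labels name another library kit. The deposited table gives an estimated count per RNA, which is not normalized and whose counter is not given in the sources used here, and the authors' FPKM. TPM and averages across the lines (10 value columns) were left out. The estimated counts of 185042 linear RNAs were added up per gene (46660 identifiers) and rounded to whole numbers. The RefSeq table of GRCh38.p14 gave a symbol to 23775 of the 24411 Entrez identifiers, and from it gene types, positions and promoters were taken.

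Scaling was by TMM across all 4 libraries (edgeR 4.0.16, R 4.3.3), with factors of 0.936 and 1.05 for U87MG control and shFLI1, and each log2 fold change is a difference of log2 CPM values (prior count 2). A gene was counted if either library of its line reached 100 counts, and called past 2-fold. No test was possible, and 95% Clopper-Pearson intervals were computed with scipy 1.17.1. Python 3.11.15 was used throughout, and the calls were tested on simulated counts. U87MG, its gene lists and the genes described were chosen with earlier results of these data known. Named genes were *FLI1*, a short list (*ISG15*, *GFAP*, *NES*, *ACTR2*, *BCL2*, *CDKN1B*, *CASP8*, *MAPK14*), the 12 largest rises and 12 largest falls outside the interferon list (by the interval limit nearest 0), the called and the most counted members of each list, and the non-coding RNAs of largest change. Further list members and the rises counted in both libraries were chosen after their values were seen. Alternatives covered scaling (DESeq2 1.42.0 size factors, total counts), count limits, prior count, threshold, thinning and FPKM. A further 2 alternatives, added after seeing the data, used only RefSeq rows or a limit on the mean level. Some genes that the naming rule selects are not reported here.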

Additional observations from a re-analysis of the deposited data

Results flagged for a closer look

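Among the genes named above, 2 were past 2-fold in opposite directions in the cell lines, and the difference was not tested. *COL11A1* was higher in U87MG, by 1.40 on the log2 scale (898 and 4607 counts), and at -1.24 in U251MG (154 and 108 counts). *IL11* had 1.76 in U87MG (91 and 602 counts) and -1.46 in U251MG (524 and 319 counts). Circular RNAs, which the comparisons above do not use, took 10.4% of all counts in U87MG shFLI1 against 8.82% in U87MG control.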

How the results depend on the processing

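The number of higher genes depended on the count limit, the threshold, the unit and the scaling. Against 290 higher and 265 lower (555 in all), a limit of 10 counts gave 1740 and 772 (2512), a limit of 1 count 3983 and 2218 (6201), and 100 counts in both libraries 77 higher (303 in all). Total counts gave 450 higher and 204 lower, so that 68.8% of the calls were higher in place of 52.3%. A 1.5-fold threshold gave 938 and 811 (1749), intervals past 2-fold 116 and 175 (291), and FPKM with 0.1 added 528 higher. Thinning the shFLI1 library gave 165 higher (35.8% of calls). Of the alternatives added after seeing the data, RefSeq rows alone gave 155 higher (37.2% of calls) and a limit on the mean level of 8.73 CPM gave 130 higher (350 in all; 37.1%). The program lists held 34 higher and 67 lower genes. These became 49 and 116 with 10 counts, 66 and 134 with 1 count, 76 and 185 at 1.5-fold, 17 higher with 100 counts in both libraries, 16 higher with intervals past 2-fold, and 39 lower on FPKM with 1 added, which also moved *FLI1* to -1.14. The sign of *COL5A1* turned on FPKM, to 0.19 with 1 added and 0.20 with 0.1 added, and the cause was not tested. The chromosome medians, relative to all protein-coding genes, ranged from 0.21 to 0.24 for chromosome 17 and from -0.19 to -0.15 for chromosome 7 over the alternatives run. The genes named above gave 2627 values over the alternatives, of which 677 were outside the counting interval and 2, both of *COL5A1*, had the other sign. No paired analysis was possible because, within U87MG, each arm has 1 library, and the U251MG libraries were not used as replicates of it. Depth limits the calls below 100 counts, where control cells were counted with less precision.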
